A study of Mus musculus with 6 samples.

Results

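The 10 genes described here make, conjugate and move bile acids: Cyp7a1, Cyp8b1, Cyp27a1, Cyp7b1, Baat, Slc10a1, Slco1a4, Slco1b2, Abcb11 and Abcc2. They were taken by name, and all 10 were among the 16623 genes of the deposited table. Livers of 3 wild-type (WT) and 3 SIRT7-/- (SIRT7 KO) mice, 5 to 6 months old, were measured by single-cell RNA sequencing, and each library mixed hepatocytes with nonparenchymal cells in equal numbers. SIRT7 is a histone deacetylase of the sirtuin family. The SIRT7-/- allele is carried by every cell of the mouse, and the study used these mice as a model that develops fatty liver disease on chow. The strain and sex of these 6 mice were not given in the sources used here. The comparison here asks whether the bile acid genes differ between the genotypes.

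Bile acids are made from cholesterol in hepatocytes. In the classic route CYP7A1 adds the first hydroxyl group and sets the rate, and CYP8B1 adds the further hydroxyl group that turns the product into cholic acid. In the acidic route CYP27A1 oxidizes the side chain and CYP7B1 hydroxylates the ring. BAAT then joins the acids to taurine or glycine, ABCB11 (the bile salt export pump) and ABCC2 (which exports conjugated organic anions) move them into the bile canaliculus, and SLC10A1 (NTCP), SLCO1A4 and SLCO1B2 take acids that return from the gut out of sinusoidal blood.

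The 6 mice gave 1243, 933 and 1094 cells in wild-type and 5609, 2179 and 552 cells in SIRT7-/- mice. They held between 2511947 and 11069411 unique molecular identifiers (UMIs, each a counted RNA molecule) per mouse. Levels are counts per 10000 UMIs of a cell (CP10K), averaged over the cells of a mouse, so that the mouse was the replicate. The labels number the mice within each genotype, and the numbers below follow them. A total of 13 cell barcodes occurred in more than 1 library. Sirt7, the deleted gene, was at 0.718, 0.512 and 0.546 CP10K over all cells of the wild-type mice. Its level was 0.10, 0.0814 and 0.139 CP10K in the SIRT7-/- mice. No SIRT7-/- mouse reached the lowest wild-type mouse, and UMIs of Sirt7 remained in each of them (ratio of means 0.180; p = 0.1 by a two-sided exact permutation test, which cannot go lower with 3 mice per genotype). Whether the deleted part of Sirt7 includes the tagged 3′ end was not given in the sources used here.

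Among 10 clusters of cells, 2 with 2945 cells carried hepatocyte markers and are called hepatocyte-like. All 12 hepatocyte markers were detected in both. The first, with 1763 cells, was led by Fabp1, Ddt and Ttc36 (Fabp1-rich cluster). The other, with 1182 cells, was led by G6pc, Neat1 and Gcgr (Neat1-rich cluster). The clusters differed in RNAs that stay in the nucleus: Malat1, Neat1, Xist, Meg3 and Kcnq1ot1 summed to between 0.865 and 29.3 CP10K per mouse in the Fabp1-rich and between 586 and 846 CP10K in the Neat1-rich cluster, with Malat1 the most abundant. The share of hepatocyte-like cells in the Neat1-rich cluster was 40.0%, 19.96% and 44.0% in wild-type and 43.2%, 17.1% and 80.9% in SIRT7-/- mice. SIRT7-/- mouse 3 stood apart with its high share, and also with a median of 3875 UMIs per cell against 1630 to 2199 in the other 5 mice. Values are therefore given for all hepatocyte-like cells and for each cluster, since a mean over all of them moves with this share. The 10 genes and the other bile acid genes took no part in making the clusters.

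All 10 genes were highest in hepatocyte-like cells among the cell classes compared. Over the 6 mice, Cyp7a1 averaged 4.40 CP10K, Cyp8b1 2.48 CP10K, Cyp27a1 2.31 CP10K and Cyp7b1 0.212 CP10K there. Baat averaged 2.10 CP10K. The importers Slc10a1, Slco1a4 and Slco1b2 averaged 2.46, 4.73 and 10.7 CP10K, and the exporters Abcb11 and Abcc2 averaged 3.19 and 4.73 CP10K. These are counts of 3′ ends, of which each RNA molecule has the same number whatever its length, and they rest on 130 UMIs for Cyp7b1 up to 7238 UMIs for Slco1b2.

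Free RNA from broken hepatocytes enters every droplet, so a low level in another class was set beside that of 18 abundant hepatocyte RNAs such as Alb, Apoa1 and Ttr, called the reference here. The reference stood at a median of 9.29% of its hepatocyte level in plasma-like cells, 17.1% in macrophage-like cells, 18.8% in dendritic-like cells and 28.6% in both T or NK-like and endothelial-like cells. Cyp7a1 stood at 2.03% to 7.15% of its hepatocyte level across these 5 classes, Slco1a4 at 1.199% to 4.46% and Abcc2 at 1.17% to 4.53%. All of these lay below the median reference of their class, as the plot of the other classes shows. Mouse by mouse, Cyp7a1 and Abcc2 lay above the reference in 1 of 5 mice in endothelial-like cells, Slco1a4 in 1 of 6 in dendritic-like and in 1 of 6 in T or NK-like cells, and Slco1a4 and Abcc2 in 1 of 4 in plasma-like cells. In the other mice of these 5 classes the levels of the 3 genes were no higher than the reference. Each percent, that of the reference included, rests on a mean over both hepatocyte-like clusters. Cyp7a1, Slco1a4 and Abcc2 were 16.4-fold, 19.5-fold and 18.3-fold higher in the Neat1-rich than in the Fabp1-rich cluster. Those ratios were 1.25 for Cyp7b1 and 0.947 for Baat. The part of this in the percents was not tested. Cyp7b1, the oxysterol hydroxylase, and Baat lay above the median reference in endothelial-like cells. Cyp7b1 averaged 0.145 CP10K there, 68.6% of the hepatocyte level of the same 5 mice, above the reference of its own mouse in 5 of 5. This rests on 10 UMIs, and hepatocyte-like cells were higher in 3 of 5 mice. Baat averaged 0.656 CP10K in endothelial-like cells, 31.0% of its hepatocyte level, from 53 UMIs, above the reference in 4 of 5 mice. In plasma-like cells Baat stood at 14.3% from 23 UMIs and Cyp7b1 at 58.9% from 4 UMIs, above the reference in 2 and 3 of 4 mice. In macrophage-like cells Cyp7b1 lay above the reference in 5 of 6 mice, from 11 UMIs. Cyp27a1, which many cell types use to oxidize cholesterol, averaged 0.396 CP10K in dendritic-like cells from 127 UMIs, above the reference in 2 of 6 mice. In macrophage-like cells Cyp27a1 averaged 0.285 CP10K from 326 UMIs, 12.4% of its hepatocyte level, also above the reference in 2 of 6 mice.

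**Figure D1:**
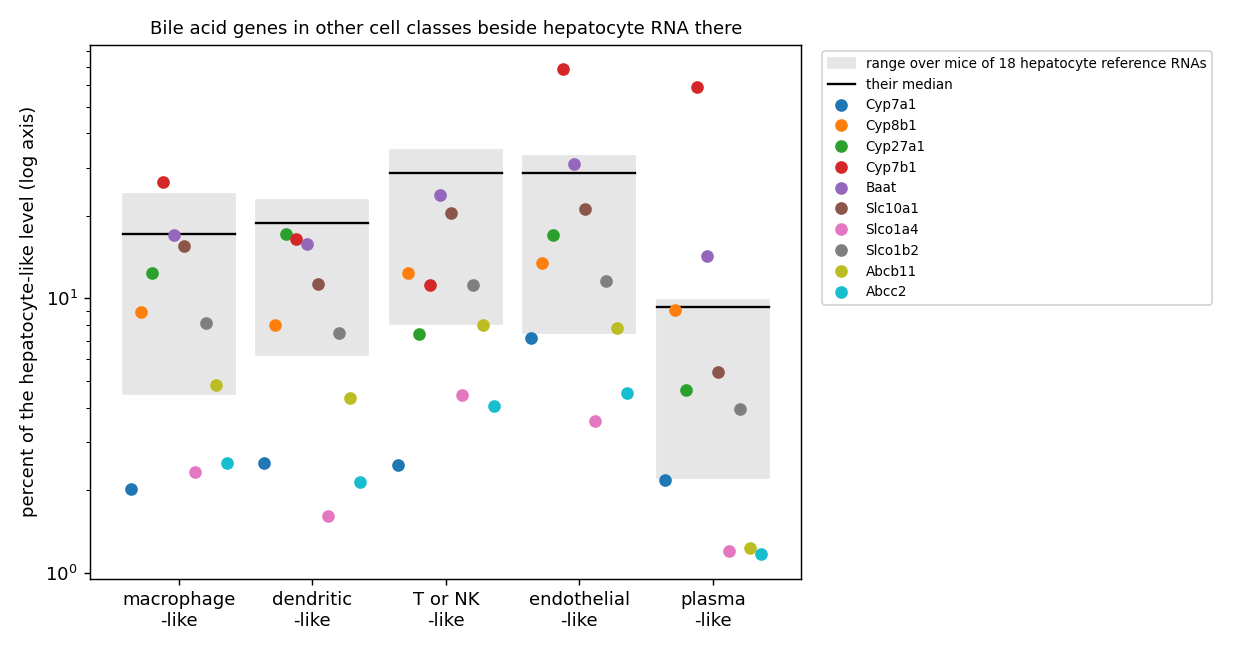
Level of each bile acid gene in 5 other cell classes (x axis) as a percent of its level in hepatocyte-like cells (log y axis, mean over mice); the gray band spans the mice and the black line is the median of 18 hepatocyte reference RNAs. Cyp7a1, Slco1a4 and Abcc2 lie below the median in every class shown, and Cyp7b1 lies above it in macrophage-like, endothelial-like and plasma-like cells, while Baat lies above it in endothelial-like and plasma-like cells.

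Within the hepatocyte-like cells, most of the 10 genes were far higher in the Neat1-rich than in the Fabp1-rich cluster. Slco1a4 averaged 10.6 against 0.544 CP10K, Abcc2 11.3 against 0.615 CP10K and Cyp7a1 9.26 against 0.566 CP10K. Cyp27a1 was 6.92-fold, Abcb11 6.90-fold, Slco1b2 4.02-fold, Cyp8b1 2.10-fold and Slc10a1 1.54-fold higher. These 8 genes were higher in the Neat1-rich cluster in 6 of 6 mice. Of 9912 genes compared, 28.9% had that pattern, and the median ratio was 5.46 for the 10 genes and 1.55 for all genes. Cyp7b1 (1.25-fold, 5 of 6 mice) and Baat (0.947-fold, higher in 2 of 6 mice) did not share it. The clusters were made from the same cells, so these ratios are a description without a test. The nuclear RNAs moved with this contrast, and their part in it was not tested.

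The genes also differ widely in length. Spearman's rho between the ratio and the gene span was 0.0788 over the 10 genes, which are not independent replicates. In GRCm38, Cyp8b1 is a single exon of 1950 bases on chromosome 9 (121914356 to 121916305, minus strand), Cyp7a1 spans 10.0 kb with 6 exons on chromosome 4 (6265612 to 6275633, minus strand), and Cyp7b1 spans 171 kb with 6 exons on chromosome 3 (18071950 to 18243338, minus strand). Slco1a4 (chromosome 6, 141805440 to 141856199, minus strand, 17 exons) and Slco1b2 (chromosome 6, 141629518 to 141686646, plus strand, 16 exons) are neighbors in 1 cluster of organic anion transporter genes. Abcb11 lies on chromosome 2 (69238282 to 69342616, minus strand, 29 exons), Abcc2 on chromosome 19 (43782192 to 43840740, plus strand, 32 exons) and Slc10a1 on chromosome 12 (80953183 to 80968705, minus strand, 6 exons). Cyp27a1 lies on chromosome 1 (74713574 to 74737892, plus strand, 9 exons) and Baat on chromosome 4 (49489422 to 49506557, minus strand, 4 exons).

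Between the genotypes, none of the 10 genes passed the threshold in all hepatocyte-like cells. This was limma's moderated test on log2(mean CP10K + 0.05), two-sided, at a Benjamini-Hochberg adjusted p under 0.05 over all genes. Of 9846 genes tested, 0.102% passed, and 1 of the 10 bile acid genes (Cyp7b1) had an unadjusted p under 0.05 against 715 of all genes. With limma's voom on summed UMIs, 0 of the 10 passed. None of the 10 separated the genotypes without overlap, against 12.9% of all genes. The median log2 difference, SIRT7-/- minus wild-type, was -0.27 for the 10 genes and 0.15 for all genes. A difference that misses the threshold in 3 mice per genotype does not show that the level is the same.

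In the rate-limiting step, Cyp7a1 was at 0.564, 4.37 and 7.16 CP10K in wild-type and at 2.47, 0.926 and 10.9 CP10K in SIRT7-/- hepatocyte-like cells. The genotypes overlapped fully, with the lowest value in wild-type mouse 1 and the highest in SIRT7-/- mouse 3. The log2 difference of 0.15 had a standard error of 0.98 (limma adjusted p = 0.988). The spread within a genotype was thus much larger than the difference. In the Neat1-rich cluster, Cyp7a1 was at 0.922, 15.7 and 15.3 CP10K in wild-type and at 5.49, 4.81 and 13.4 CP10K in SIRT7-/- mice. Wild-type mouse 1 was the lowest of all 6, and the other 2 wild-type mice were above all SIRT7-/- mice. In the Fabp1-rich cluster, the values were 0.326, 1.55 and 0.770 CP10K in wild-type and 0.169, 0.123 and 0.458 CP10K in SIRT7-/- mice. Here SIRT7-/- mouse 3 lay above wild-type mouse 1, and the log2 difference was -1.56 ± 0.54 (standard error; adjusted p = 0.281).

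Cyp8b1, which sets the share of cholic acid, was at 1.69, 3.45 and 1.93 CP10K in wild-type and at 1.15, 0.956 and 5.69 CP10K in SIRT7-/- hepatocyte-like cells. SIRT7-/- mouse 3 was the highest and the other 2 SIRT7-/- mice were the lowest. Cyp27a1, the side chain oxidase, was at 1.87, 2.06 and 2.92 CP10K in wild-type and at 1.66, 0.834 and 4.49 CP10K in SIRT7-/- mice, in the same order. Cyp7b1 was at 0.120, 0.504 and 0.328 CP10K in wild-type and at 0.0399, 0.0657 and 0.214 CP10K in SIRT7-/- mice, and only SIRT7-/- mouse 3 overlapped the wild-type range. Its log2 difference was -1.23 ± 0.54 (standard error; limma adjusted p = 0.667), from as few as 2 UMIs in SIRT7-/- mouse 2. The wild-type mice were far apart for Cyp27a1 in the Fabp1-rich cluster: wild-type mouse 3 was at 0.0395 CP10K from 2 UMIs while its Neat1-rich cells were at 6.59 CP10K.

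Baat, which conjugates the acids, was the steadiest of the 10 genes among SIRT7-/- mice. It was at 2.27, 3.06 and 1.37 CP10K in wild-type and at 1.90, 1.98 and 2.04 CP10K in SIRT7-/- hepatocyte-like cells. The SIRT7-/- mice all lay inside the wild-type range, and the log2 difference was -0.10 ± 0.41 (standard error; limma adjusted p = 0.984).

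For uptake from blood, the sodium-dependent importer Slc10a1 was at 3.58, 3.51 and 2.05 CP10K in wild-type and at 1.47, 0.671 and 3.47 CP10K in SIRT7-/- hepatocyte-like cells. SIRT7-/- mice 1 and 2 lay below all wild-type mice, and mouse 3 lay among them. Slco1b2, a sodium-independent importer, was at 10.2, 12.7 and 13.2 CP10K in wild-type and at 8.27, 3.50 and 16.03 CP10K in SIRT7-/- mice. Here SIRT7-/- mouse 3 was above all others and mice 1 and 2 were below all wild-type mice. Slco1a4, another organic anion importer, was at 3.97, 3.38 and 8.39 CP10K in wild-type and at 2.53, 1.44 and 8.68 CP10K in SIRT7-/- mice, in the same arrangement. With SIRT7-/- mouse 3 left out, 6 of the 10 genes (Cyp8b1, Cyp27a1, Cyp7b1, Slc10a1, Slco1a4 and Slco1b2) were lower in both remaining SIRT7-/- mice than in any wild-type mouse. Of all genes, 9.95% did so. None of the 10 passed the limma threshold without that mouse.

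The importers stood further apart in the Fabp1-rich cluster. Slco1a4 was at 0.781, 1.16 and 0.555 CP10K in wild-type and at 0.162, 0.0861 and 0.523 CP10K in SIRT7-/- mice. It was the only one of the 10 genes whose genotypes did not overlap there, with SIRT7-/- mouse 3 just under wild-type mouse 3, and 16.9% of all genes tested in this cluster did not overlap (9.07% lower in SIRT7-/- mice). The log2 difference was -1.73 ± 0.51 (standard error; limma adjusted p = 0.166). Wild-type mouse 3 and SIRT7-/- mice 2 and 3 gave 4, 4 and 5 UMIs of it. Slc10a1 was at 3.23, 3.49 and 1.61 CP10K in wild-type and at 0.908, 0.465 and 1.95 CP10K in SIRT7-/- mice, with SIRT7-/- mouse 3 above wild-type mouse 3 (log2 difference -1.43 ± 0.47, adjusted p = 0.274). Slco1b2 was at 6.11, 9.92 and 3.62 CP10K in wild-type and at 1.75, 1.58 and 5.32 CP10K in SIRT7-/- mice, with the same overlap (-1.28 ± 0.53, adjusted p = 0.450).

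At the canaliculus, Abcb11 was at 3.37, 2.38 and 2.44 CP10K in wild-type and at 4.11, 1.04 and 5.78 CP10K in SIRT7-/- hepatocyte-like cells. SIRT7-/- mice 1 and 3 lay above and mouse 2 below every wild-type mouse. Abcc2 was at 4.73, 3.22 and 3.45 CP10K in wild-type and at 4.37, 3.39 and 9.19 CP10K in SIRT7-/- mice, and only SIRT7-/- mouse 3 lay outside the wild-type range. In the Neat1-rich cluster, Abcb11 was at 5.62, 6.48 and 4.90 against 9.05, 4.77 and 6.88 CP10K, and Abcc2 at 10.9, 12.6 and 6.84 against 9.61, 16.3 and 11.3 CP10K. The genotypes overlapped for both exporters. Among Fabp1-rich cells, Abcb11 was at 1.87, 1.36 and 0.502 against 0.357, 0.267 and 1.10 CP10K (log2 difference -1.11 ± 0.55, limma adjusted p = 0.487). Abcc2 was at 0.613, 0.882 and 0.780 against 0.391, 0.718 and 0.308 CP10K there (-0.69 ± 0.41, limma adjusted p = 0.548). The SIRT7-/- means were lower there and the genotypes again overlapped.

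**Figure D2:**
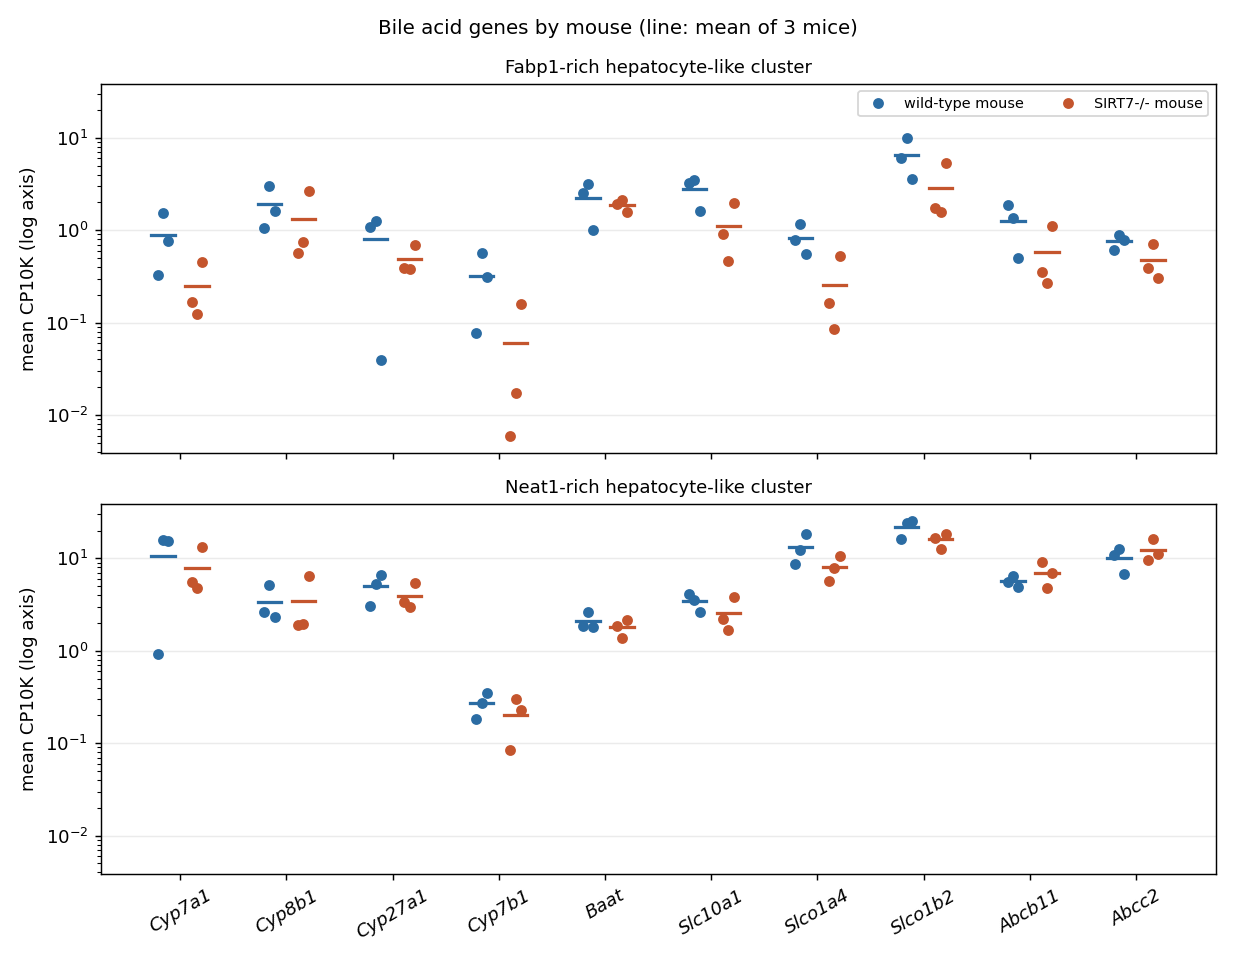
Mean level of the 10 bile acid genes (x axis) in CP10K (log y axis) in each of 3 wild-type and 3 SIRT7-/- mice, in the Fabp1-rich (top) and the Neat1-rich cluster (bottom); lines are means of 3 mice. The genotypes overlap for all genes except Slco1a4 in the Fabp1-rich cluster, and Cyp7a1 of wild-type mouse 1 lies far below the other mice in the Neat1-rich cluster.

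Over the whole set, the 10 genes had mostly negative differences in the Fabp1-rich cluster, and none passed the threshold. There 0.454% of 8585 genes passed. Of the 10 genes, 9 had a negative log2 difference, and 5 (Cyp7a1, Cyp7b1, Slc10a1, Slco1a4 and Slco1b2) had an unadjusted p under 0.05, against 10.6% of all genes. The median log2 difference was -1.20 for the 10 genes and -0.10 for all genes. Cyp27a1 was the exception in sign, at 0.02 ± 1.06 (standard error). Of the 10, 3 genes (Slco1a4, Slco1b2 and Abcb11) passed with voom on summed UMIs, where 5.05% of genes passed. Slco1a4, Slco1b2 and Slc10a1 passed without SIRT7-/- mouse 3, where 1.58% did. Slco1a4 and Slco1b2 also passed in cells with at least 1000 UMIs, where 1.05% did. In the Neat1-rich cluster, 0.244% of 10233 genes and none of the 10 passed, none of the 10 had an unadjusted p under 0.05 against 1006 of all genes, and none passed with voom. Their median log2 difference was -0.27 against 0.18 for all genes. The smallest adjusted p was that of Slco1a4, with a log2 difference of -0.68 ± 0.38 (standard error; limma adjusted p = 0.565), and no gene of the 10 separated the genotypes, against 16.7% of all genes. The difference between the clusters in these genotype differences was not tested.

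**Figure D3:**
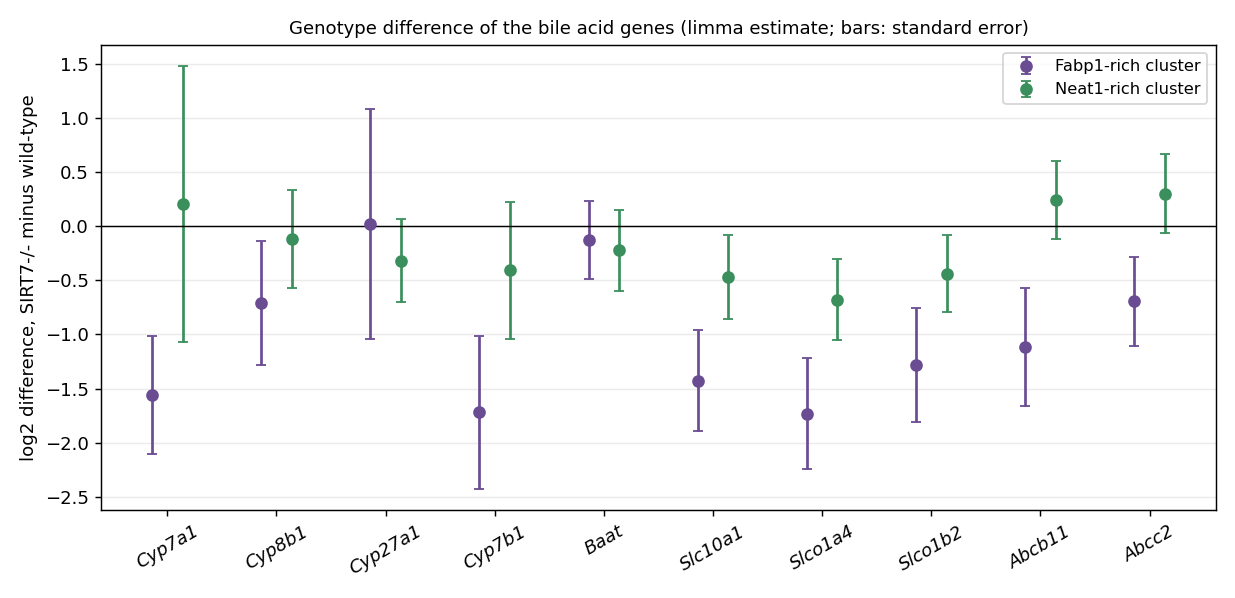
Log2 difference of each bile acid gene, SIRT7-/- minus wild-type (y axis; limma estimate from 3 mice per genotype, bars are standard errors), in the Fabp1-rich and the Neat1-rich cluster. In the Fabp1-rich cluster 9 of 10 estimates lie below 0, down to -1.73 for Slco1a4, and in the Neat1-rich cluster 7 of 10 lie below 0, down to -0.68.

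Other gene groups were summed in the same cells. Members whose values did not overlap between the genotypes were counted, against 4.14% of all genes lower and 12.6% higher in SIRT7-/- mice in the Neat1-rich cluster, and 9.07% lower and 7.85% higher in the Fabp1-rich cluster. In Neat1-rich cells, 12 immediate-early genes (such as Fos, Jun and Ier2, the most abundant) summed to 85.9, 46.8 and 58.5 CP10K in wild-type and to 25.01, 14.3 and 12.2 CP10K in SIRT7-/- mice, and 8 of the 12 were lower. Their sums overlapped in Fabp1-rich cells (6.81, 4.72 and 6.35 against 4.94, 6.20 and 6.32 CP10K), where 0 of the 12 were lower and 1 (Atf3) was higher. Of 11 liver genes that differ between the sexes, 5 were lower and 1 (Mup20) was higher in Neat1-rich cells, and 3 were lower in Fabp1-rich cells.

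Of the 5 nuclear RNAs, Neat1 and Kcnq1ot1 were higher and Xist was lower in SIRT7-/- Neat1-rich cells, and none was without overlap in Fabp1-rich cells. Neat1 itself was at 57.9, 42.2 and 35.0 against 112, 119 and 69.6 CP10K. Of the 12 hepatocyte markers, 4 were lower in each cluster, and Fabp1 was higher in the Fabp1-rich cluster (means of 179 against 406 CP10K). The 11 macrophage markers summed to between 1.46 and 8.73 CP10K in Neat1-rich cells, with means of 2.49 and 4.83 CP10K and overlap between the genotypes. The 14 T or NK markers summed there to 0.250, 0.330 and 2.54 CP10K in wild-type and to 3.92, 5.28 and 0.796 CP10K in SIRT7-/- mice, also with overlap, and Ccl5 was the most abundant. Of the macrophage markers, Cd5l (0.0127, 0.0523 and 0.0762 against 1.35, 0.747 and 0.157 CP10K) and C1qc were higher there, and C1qc also in Fabp1-rich cells. Hemoglobin RNA summed to 103.5 CP10K in the Fabp1-rich cells of wild-type mouse 1 and to at most 6.18 CP10K in the other mice. The part of all these in the values of the bile acid genes was not tested.

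Hepatocytes change along the lobule, from the portal field, where blood enters, to the central vein. Both zones were therefore set apart within each mouse. Hepatocyte-like cells were ranked by 9 pericentral genes (such as Glul and Cyp2e1) minus 9 periportal genes (such as Cyp2f2 and Hal), and the 3 equal parts of the ranking gave a pericentral end, a middle and a periportal end. Of 14 further zone genes outside the score, 7 of 7 pericentral genes were higher and 7 of 7 periportal genes lower in the mean at the pericentral end. The check was weaker mouse by mouse, above all for periportal genes: 5 of the 7 pericentral genes were higher in all 6 mice (median ratio 1.52), and 1 of the 7 periportal genes was lower in all 6 (median ratio 0.820). The clusters were unevenly mixed over the ends: Neat1-rich cells were 28.4% of the pericentral and 71.2% of the periportal end in SIRT7-/- mouse 1, and 63.6% and 30.3% in wild-type mouse 3. The ends were therefore also set within each cluster, so that both held the same mixture.

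Cyp7a1 was higher at the pericentral end in every mouse, as were 1.44% of all 9832 genes. It was at 0.979, 5.52 and 11.7 CP10K at the pericentral and at 0.244, 3.17 and 4.01 CP10K at the periportal end in wild-type mice. In SIRT7-/- mice it was at 3.30, 0.868 and 15.9 CP10K at the pericentral and at 1.54, 0.376 and 4.23 CP10K at the periportal end. The ends thus kept their order in 6 of 6 mice while the mice differed widely in level. The log2 difference between the ends was 1.37 ± 0.45 (standard error; limma adjusted p = 0.930, unadjusted p = 0.0141). Of 9832 genes, 0.0203% passed the threshold and 172 had an unadjusted p under 0.05. With voom on summed UMIs Cyp7a1 passed, with a log2 difference of 1.45 (adjusted p = 2.66e-05), where 0.906% of genes passed. None of the other 9 did. With the ends set within each cluster the difference for Cyp7a1 was 1.76, also short of the threshold by limma.

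Slco1b2 was the other of the 10 genes with this order in 6 of 6 mice, with means of 13.8 ± 6.95 CP10K at the pericentral and 8.18 ± 3.35 CP10K at the periportal end (SD, n = 6). Its log2 difference was 0.68 ± 0.39 (standard error; limma adjusted p = 0.930), and 0.72 with the ends set within each cluster. Cyp27a1 was higher at the pericentral end in 4 of 6 mice (log2 difference 0.83 ± 0.47), and Cyp7b1 in 4 of 6 mice from few UMIs. Cyp8b1 was higher at the pericentral end in 3 of 6 mice, Slc10a1 in 3, Baat in 2 and Abcc2 in 4. The log2 differences of these 4 genes lay between -0.08 and 0.21. Abcb11 was higher at the pericentral end in 1 of 6 mice, with means of 2.89 ± 1.40 against 3.94 ± 2.99 CP10K (SD, n = 6; log2 difference -0.23 ± 0.33). With the ends set within each cluster the log2 differences were 1.004 for Cyp27a1, 0.93 for Cyp7b1, 0.13 for Cyp8b1, 0.20 for Slc10a1, -0.31 for Baat, 0.25 for Abcc2 and -0.16 for Abcb11, each with the same sign as before. That of Slco1a4 was -0.18 before and 0.047 within clusters, and none of the 10 passed the threshold.

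**Figure D4:**
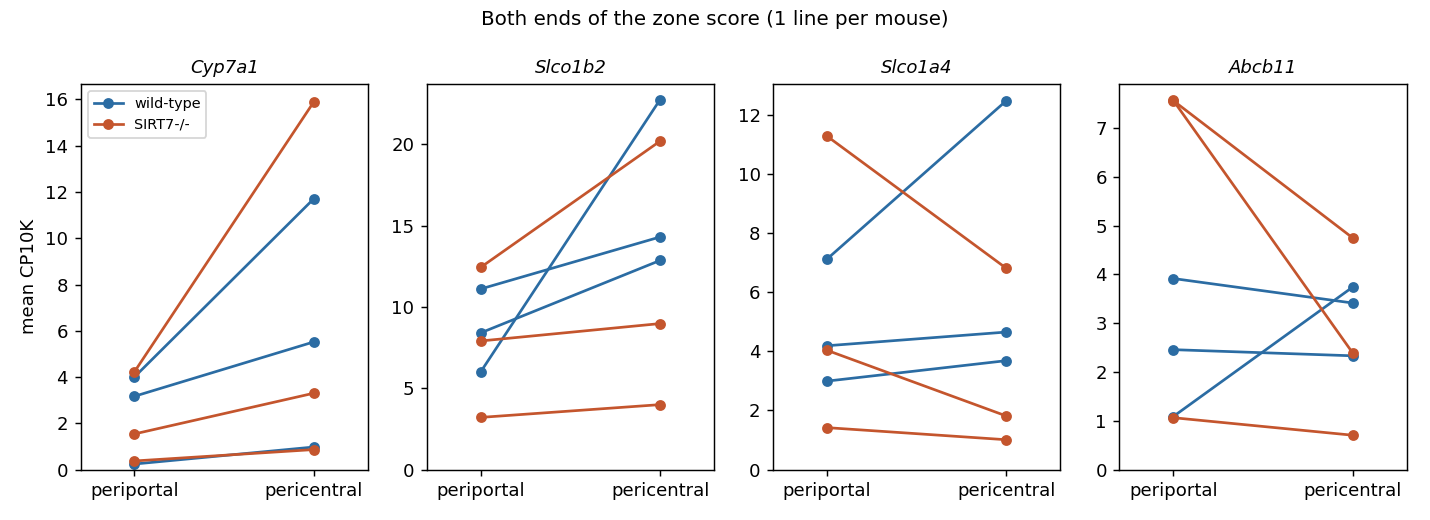
Mean CP10K (y axes from 0, with their own scale) of Cyp7a1, Slco1b2, Slco1a4 and Abcb11 at the periportal and pericentral ends of the hepatocyte-like cells, 1 line per mouse. Cyp7a1 and Slco1b2 are higher at the pericentral end in 6 of 6 mice, while Slco1a4 is higher there in 3 of 3 wild-type and lower in 3 of 3 SIRT7-/- mice.

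The genotype difference was also fitted at each end and compared between the ends. At the pericentral end 0.104% of 9660 genes and at the periportal end 0.0916% of 9823 genes passed, none of the 10 at either end. With the ends set within each cluster, 13 genes passed at each end, again none of the 10. At the pericentral end 3 of the 10 and at the periportal end 0 of the 10 had an unadjusted p under 0.05, against 544 and 701 of all genes. In the test of zone by genotype, 0% of 9832 genes passed and 556 had an unadjusted p under 0.05, 1 of them among the 10. That gene, Slco1a4, was at 4.65, 3.68 and 12.5 CP10K at the pericentral and at 4.19, 2.99 and 7.12 CP10K at the periportal end of wild-type mice. In SIRT7-/- mice it was at 1.81, 1.011 and 6.80 CP10K at the pericentral and at 4.03, 1.42 and 11.3 CP10K at the periportal end. The order of the ends was thus opposite in the genotypes, in 3 of 3 mice each, as for 4.21% of all genes. The difference of the zone differences was -1.19 ± 0.49 on the log2 scale (standard error; limma adjusted p = 0.679). With the ends set within each cluster it was -0.40 and did not pass either. With voom, 1 gene passed in this test, and it was not among the 10.

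A list of 39 other measured bile acid genes that spans synthesis, transport and regulators gave no gene past the threshold in any hepatocyte comparison. In all hepatocyte-like cells 32 were tested, 3 of them with an unadjusted p under 0.05 against 7.26% of all genes, and the median log2 difference was -0.18. In the Fabp1-rich cluster 31 were tested, of which 24 were negative (4784 of 8585 for all genes) and 5 had an unadjusted p under 0.05 (10.6% of all genes). In the Neat1-rich cluster 33 were tested, of which 14 were negative (4121 of 10233 for all genes) and 5 had an unadjusted p under 0.05 (9.83% of all genes). Of the 3 most abundant genes of each role, the peroxisomal thiolase Scp2 was at 34.0, 34.9 and 34.5 CP10K in wild-type and at 45.1, 47.1 and 17.1 CP10K in SIRT7-/- hepatocyte-like cells, with SIRT7-/- mouse 3 the lowest. Akr1c6, an aldo-keto reductase, was lower in SIRT7-/- mice without overlap in the Neat1-rich cluster (6.83, 14.7 and 10.6 against 5.49, 4.76 and 4.798 CP10K; log2 difference -1.02 ± 0.36, limma adjusted p = 0.332). Of all genes, 4.14% were lower there in this way. In the Fabp1-rich cluster Akr1c6 was at 13.4 to 24.4 CP10K over the mice. The genotypes overlapped in that cluster, and the SIRT7-/- mean was higher.

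Cyp2c70, which makes the muricholic acids of rodents, was at 11.9, 6.25 and 6.50 CP10K in wild-type and at 2.03, 1.90 and 4.43 CP10K in SIRT7-/- Neat1-rich cells. All SIRT7-/- mice lay below all wild-type mice. The log2 difference was -1.59 ± 0.40 (standard error; limma adjusted p = 0.101). Of 17 alternatives Cyp2c70 passed in 2. Without SIRT7-/- mouse 3 its limma adjusted p was 0.000491, where 1.71% of genes passed. With the replicate number as a block, which the labels do not call a pairing, it was 0.0206, where 0.967% did. In the others, voom and the leaving out of each other mouse included, Cyp2c70 did not pass, with adjusted p up to 0.419 by limma. In all hepatocyte-like cells the genotypes overlapped (log2 difference -1.53 ± 0.50, adjusted p = 0.532). Abcb4, the phospholipid transporter of the canaliculus, went the other way in the Neat1-rich cluster, at 4.23, 5.98 and 5.64 CP10K in wild-type and 8.85, 7.64 and 8.79 CP10K in SIRT7-/- mice without overlap, as 12.6% of all genes did (log2 difference 0.68 ± 0.35, adjusted p = 0.522). The basolateral exporter Abcc3 was at 0.4998, 1.12 and 0.517 CP10K in wild-type and at 0.142, 0.0595 and 0.294 CP10K in SIRT7-/- Fabp1-rich cells, again without overlap (log2 difference -1.89 ± 0.51, adjusted p = 0.122). Of all genes, 9.07% were lower without overlap in that cluster. In the Neat1-rich cluster Abcc3 was at 1.08 to 2.16 CP10K over the mice. The genotypes overlapped there, and the SIRT7-/- mean was higher. The transporter subunit Abcg5 overlapped in both clusters. Among the regulators, Hnf4a, a nuclear receptor of hepatocyte identity, was at 1.71, 1.81 and 1.64 CP10K in wild-type and 2.41, 2.19 and 2.19 CP10K in SIRT7-/- Neat1-rich cells (log2 difference 0.39 ± 0.36). In Fabp1-rich cells Hnf4a was at 1.33 to 2.63 CP10K over the mice, with overlap and a lower SIRT7-/- mean. The oxysterol receptor gene Nr1h3 overlapped in both clusters. Nr1i3, which encodes the receptor CAR, was higher at the pericentral end in 6 of 6 mice, with means of 9.70 against 4.54 CP10K (log2 difference 0.92 ± 0.41, adjusted p = 0.930; 1.07 with the ends set within each cluster), and passed with voom.

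Outside the rule, 2 genes had the smallest adjusted p of their comparison among these 39 and were chosen after their values were seen. Nr0b2 encodes SHP, a repressor of Cyp7a1 that bile acids induce. It was at 3.11, 1.0099 and 1.65 CP10K in wild-type and at 0.796, 0.286 and 0.202 CP10K in SIRT7-/- Neat1-rich cells. The SIRT7-/- mice all lay below the wild-type mice (log2 difference -2.10 ± 0.49, limma adjusted p = 0.0698), as for 4.14% of all genes. Of 17 alternatives, Nr0b2 passed in 3 that left out 1 mouse and in 2 others (a pseudocount of 0.5 and the replicate block). Without SIRT7-/- mouse 3, 1.71% of genes passed, and 0.967% did with the block. In Fabp1-rich cells Nr0b2 was at 0 to 1.04 CP10K over the mice, and the genotypes overlapped. Slc27a5, the bile acid CoA ligase that acts before BAAT, was at 1.62, 2.73 and 1.13 CP10K in wild-type and at 0.397, 0.277 and 0.8495 CP10K in SIRT7-/- Fabp1-rich cells. The genotypes did not overlap there (log2 difference -1.80 ± 0.42, adjusted p = 0.0670), as for 9.07% of all genes lower in SIRT7-/- mice, while they overlapped in the Neat1-rich cluster. Of 17 alternatives, Slc27a5 passed without SIRT7-/- mouse 3, where 1.58% of genes passed, and in 4 others. Among those were voom, where 5.05% of genes passed, and cells with at least 1000 UMIs, where 1.05% did.

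The 10 genes varied together across mice and zones to different degrees. Over 12 points (both ends of 6 mice, which share libraries and depth), Pearson's r of log2 levels was 0.921 between Cyp27a1 and Slco1b2, 0.826 between Abcb11 and Abcc2 and 0.677 between Cyp7a1 and Cyp8b1. Baat had an r of -0.137 with Cyp7a1 and -0.243 with Slco1a4. Among 3282 other genes that averaged 0.5 CP10K or more, those with the highest r to Cyp7a1 were Nat8f2 (0.944), Nap1l1 (0.879) and Ces3a (0.861). For Cyp8b1 they were Dhcr7 (0.938), Cd1d1 (0.912) and H2-T23 (0.899), and for Cyp27a1 Cdh2 (0.963), Stx4a (0.926) and Slc19a2 (0.923). None are given for Cyp7b1, which rests on 53 UMIs at the pericentral and 21 UMIs at the periportal end.

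Hepatocyte promoters are read by nuclear receptors and HNF factors, so the 250 bases before each RefSeq start site were searched on both strands for 3 short motifs. RefSeq promoters were at hand for 7 of the 10 genes, with 2 for Slc10a1. RefSeq starts can differ from those of the gene spans given above, which are from GENCODE: the windows shown for Slc10a1 (at its RefSeq start further downstream) and Abcc2 lie inside those spans. The nuclear receptor motif AGGTCA was in 4 of the 7 (Abcb11, Abcc2, Slc10a1 and Slco1b2) and in 14.02% of 32851 mouse promoters. The HNF4 motif CAAAGTCCA was in that of Cyp8b1 and in 0.384% of promoters, and the HNF1 motif GTTAAT was in that of Slco1b2 and in 6.43% of promoters, where it does not overlap AGGTCA. The windows of 60 bases around a match are shown because they hold AGGTCA in both exporters and in 2 of the 3 importers (Slco1a4 had no match in its window), and the HNF4 motif in Cyp8b1. They are written 5′ to 3′ along the gene, with the match in capitals (TGACCT is AGGTCA read from the other strand), in GRCm38.p6.
Abcb11, chr2:69342640-69342699, minus strand: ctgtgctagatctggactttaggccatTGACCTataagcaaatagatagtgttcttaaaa
Abcc2, chr19:43782232-43782291, plus strand: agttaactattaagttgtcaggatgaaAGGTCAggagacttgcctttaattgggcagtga
Slc10a1, chr12:80968134-80968193, minus strand: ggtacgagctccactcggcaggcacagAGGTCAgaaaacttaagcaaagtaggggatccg
Slco1b2, chr6:141629410-141629469, plus strand: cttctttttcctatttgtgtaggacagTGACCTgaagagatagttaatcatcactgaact
Cyp8b1, chr9:121916339-121916398, minus strand: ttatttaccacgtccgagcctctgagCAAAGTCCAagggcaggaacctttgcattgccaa
A match shows the letters only. Among the genes with AGGTCA, the log2 differences in Neat1-rich cells were 0.24 for Abcb11, 0.30 for Abcc2, -0.47 for Slc10a1 and -0.44 for Slco1b2, none past the threshold. In Fabp1-rich cells those of all 4 genes were negative, as given above, and none passed in the main test. Abcb11, Slc10a1 and Slco1b2 passed there under some alternatives.

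In the other cell classes, the levels of the 10 genes lay mostly at or below that of hepatocyte RNA in the droplets, and no genotype difference passed the threshold. The share of all genes that passed was 0.201% for macrophage-like, 0.12% for T or NK-like, 0.0308% for dendritic-like, 0.197% for endothelial-like and 0.0781% for plasma-like cells. Of the bile acid genes tested, 1 of 10, 1 of 9, 1 of 9, 1 of 10 and 2 of 7 had an unadjusted p under 0.05. Over all genes these counts were 1039 of 9949, 690 of 10021, 582 of 9742, 797 of 10645 and 502 of 7687. Voom called 0 of the bile acid genes. Cyp7b1, Baat and Cyp8b1 passed in plasma-like cells without wild-type mouse 3, where 12.1% of genes passed, and Baat passed in T or NK-like cells without SIRT7-/- mouse 1, where 1.34% did. Endothelial-like cells were compared in 3 wild-type and 2 SIRT7-/- mice, since SIRT7-/- mouse 3 had 8 such cells, and plasma-like cells in 2 mice of each genotype. The reference of free hepatocyte RNA was lowest in SIRT7-/- mouse 2 in all 5 classes, at 4.48% in macrophage-like cells against 14.3% to 24.1% in the other mice.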

How the data were processed

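Reads were aligned by the authors to mm10 with Cell Ranger 6.0.0, per the labels. The deposited values are the natural log of counts per 10000 plus 1, after the authors had removed cells with under 500 genes or over 5% mitochondrial counts. Whole UMIs were recovered for all 12961041 values above 0 (tolerance 0.02, largest deviation 0.00387). Barcode endings gave the mouse of every cell. All gene columns hold the same unit.

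Cells were clustered in scanpy 1.11.5, under Python 3.11.15 with scipy 1.17.1, on 1000 variable genes without bile acid genes, 50 principal components, 3 neighbors per mouse and leidenalg 0.10.2 at a resolution of 0.35. Clusters were named from marker lists. The dendritic-like cluster had a monocyte score nearly as high. The names rest on rebuilt clusters, which may differ from those of the study. The doublet caller marked 46 cells (0.396%), too few to have worked, so none were removed and an alternative left out the highest 5% of scores.

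Mouse means per class (at least 20 cells) were compared with limma 3.58.1 (R 4.3.3; eBayes with trend and robust) on log2(mean CP10K + 0.05), for genes averaging 0.05 CP10K or more, two-sided, with Benjamini-Hochberg adjustment. Such log2 differences understate changes of low genes. Zone differences were taken within each mouse. The study tested single cells with MAST, which was not used. The scripts were tested on simulated data. The labels do not say that the mice were paired.

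Named were the 10 genes, pathway genes past the threshold, the 3 most abundant pathway genes of each role and the 3 genes most similar to each of Cyp7a1, Cyp8b1 and Cyp27a1. Similar genes were also sought for Cyp7b1 and are not named, since it rests on few UMIs. The members and lists were chosen with earlier results of these data known.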

Additional observations from a re-analysis of the deposited data

Results flagged for a closer look

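Slco1a4 differed between the genotypes in the direction of its zone difference: it was higher at the pericentral than at the periportal end in 3 of 3 wild-type mice and lower in 3 of 3 SIRT7-/- mice. Of all 9832 genes, 4.21% had opposite directions in this way. Within wild-type mice the log2 differences between the ends were 0.15, 0.30 and 0.81, and within SIRT7-/- mice they were -1.13, -0.47 and -0.72. The test of the difference gave -1.19 on the log2 scale (limma adjusted p = 0.679, unadjusted p = 0.0387), which does not pass the threshold. Neat1-rich cells, in which Slco1a4 was higher, made up 28.4%, 15.1% and 69.4% of the pericentral and 71.2%, 13.98% and 95.5% of the periportal end in SIRT7-/- mice. In wild-type mice they made up 42.5%, 17.6% and 63.6% of the pericentral and 47.0%, 23.5% and 30.3% of the periportal end. With the ends set within each cluster, the difference was -0.40 and did not pass the threshold. With the ends set over all hepatocyte-like cells and 1 mouse left out at a time, it lay between -1.35 and -0.998.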

How the results depend on the processing

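In all hepatocyte-like cells, at both zone ends and in the Neat1-rich cluster, 0 of the 10 genes passed under any alternative run. In the Fabp1-rich cluster 3 passed with voom (Slco1a4, Slco1b2, Abcb11), 2 in cells with at least 1000 UMIs (Slco1a4, Slco1b2) and 0 to 3 without 1 mouse (3 without SIRT7-/- mouse 3). Between zone ends 1 passed with voom (Cyp7a1). In the other classes 0 to 3 passed without 1 mouse (Cyp7b1, Baat and Cyp8b1 in plasma-like cells without wild-type mouse 3, where 12.1% of genes passed, and Baat in T or NK-like cells without SIRT7-/- mouse 1, where 1.34% did). Without 1 mouse, 0 to 6 of the 10 did not overlap in hepatocyte-like cells (6 without SIRT7-/- mouse 3), and the Sirt7 ratio was 0.153 to 0.202. Among the pathway genes, Slc27a5 and Abcc3 (Fabp1-rich), Nr0b2 and Cyp2c70 (Neat1-rich) and Nr1i3 (zone ends) passed under some alternatives.

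Of 885 values for 50 single differences, 820 kept their sign and side of the threshold, 25 came to pass and 40 changed sign, none of them past the threshold. The cause was not tested. In hepatocyte-like cells, Cyp7a1 was -0.33 with voom and -0.24 in cells with at least 1000 UMIs, Abcb11 -0.21 in both, and with the mean of logged values Cyp8b1 was 0.080 and Cyp27a1 0.053. Without 1 mouse they ranged from -0.91 to 0.96 for Cyp7a1, -1.06 to 0.20 for Cyp8b1, -0.90 to 0.28 for Cyp27a1, -0.41 to 0.16 for Baat and -0.37 to 0.84 for Abcb11. In the Fabp1-rich cluster Cyp27a1 was -0.23 with a pseudocount of 0.5, -0.13 with logged values, -1.27 with voom, -0.033 without likely doublets and -0.54 in cells with at least 1000 UMIs. Without 1 mouse it ranged from -1.24 to 0.70, and Baat from -0.61 to 0.19. In the Neat1-rich cluster Cyp7a1 was -0.41 with logged values and -1.12 to 0.88 without 1 mouse, and Cyp8b1 -0.68 to 0.23. Between zone ends Cyp8b1 was -0.049 without likely doublets, -0.34 in cells with at least 1000 UMIs and -0.070 with ends set over all mice. In such cells Baat was 0.024 and Abcc2 -0.024. Slc10a1 was -0.013 with voom, and Slco1a4 0.047 with ends set within each cluster. Without 1 mouse Cyp8b1 ranged from -0.023 to 0.16 and Slc10a1 from -0.058 to 0.37.

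With the replicate number as a block, 0 of the 10 genes passed, and Nr0b2 (adjusted p = 0.00313) and Cyp2c70 (adjusted p = 0.0206, both limma in the Neat1-rich cluster) did. Over all genes the block gave 18 calls in hepatocyte-like, 2 in Fabp1-rich and 99 in Neat1-rich cells. Same-numbered mice correlated at -0.04, 0.14 and 0.02 in hepatocyte-like cells, and mice with different numbers at -0.12 to 0.11. Such values cannot tell whether same-numbered mice share a batch or a litter. Over all alternatives, limma or voom called 0 to 44 of all genes in hepatocyte-like cells (10 in the main test), 2 to 432 in Fabp1-rich (39), 7 to 174 in Neat1-rich (25), 0 to 47 at the pericentral (10) and 0 to 86 at the periportal end (9), 0 to 90 between ends (2), 0 to 1 for zone by genotype (0), 1 to 129 in macrophage-like (20), 3 to 134 in T or NK-like (12), 0 to 134 in dendritic-like (3), 3 to 242 in endothelial-like (21) and 1 to 913 in plasma-like cells (6). Plasma-like cells could not be fitted with the block. The Fabp1-rich and Neat1-rich fits, doublets, and ends set within clusters were chosen after seeing the data. Depth limits low genes most: Cyp7b1 rests on 130 UMIs.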
